A study of Mus musculus with 2 samples.

Results

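The Iroquois (Irx) genes of the mouse lie in 2 clusters of 3, with Irx1, Irx2 and Irx4 on chromosome 13 and Irx3, Irx5 and Irx6 on chromosome 8. The sites described here are the CTCF peaks whose summits fall between 200 kb before and 200 kb after the gene span of each cluster (GENCODE M21 gene records, mm10). The Irx1, Irx2 and Irx4 window (chr13:71757921-73469608) held 35 peaks and the Irx3, Irx5 and Irx6 window (chr8:91598525-92880956) held 28, which is 63 of the 44533 peaks of the optimal list. That list holds the peaks of both libraries that passed the authors' threshold on the irreproducible discovery rate (IDR). Over the genome, 3414 peaks of the authors' conservative IDR list are not in the optimal list as used here, so counts, densities and gaps from the optimal list may miss sites. Window membership used position only and no measured value. The study sequenced DNA precipitated with an antibody against CTCF from the postnatal heart of B6NCrl mice at age 0 days. It has 2 libraries of a single group. The labels number them as separate biological replicates, but both carry the same tissue and donor labels, so differences between the 2 may be technical. There is no treated, mutant or other comparison group, so each value is a description with no test. CTCF peaks do not report which genes are expressed, so the labelled tissue could not be checked against marker genes. The peak lists hold no read depth, which is unknown here.

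CTCF is a zinc-finger protein that binds a long DNA motif in a fixed orientation, halts extruding cohesin and thereby anchors chromatin loops and insulates neighbouring genes. Irx genes encode homeodomain transcription factors of the TALE class. The clusters arose by duplication, and by position and sequence Irx1 pairs with Irx3, Irx2 with Irx5, and Irx4 with Irx6. In the mouse heart, Irx4 is a marker and regulator of ventricular myocardium, Irx3 acts in the ventricular conduction system, and Irx5 sets the gradient of repolarising potassium current across the ventricular wall.

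The sequences that carry the descriptions that follow are 30-base stretches of the GRCm38 (mm10) genome around the best match to the CTCF core consensus, written 5′ to 3′ on the strand of the match, with the 14 bases of the core in capitals. A core was called at no more than 2 mismatches to the consensus within 50 bp of the summit, on either strand. The first set shows the best match at a peak near each of 4 Irx genes, where the match near Irx3 has 3 mismatches and is below the call.
Irx2, upstream (chr13:72624106-72624135, minus strand): aggcgccgCCAGGAGGGAGCGCagcgcgcg
Irx4, upstream (chr13:73252229-73252258, plus strand): agtcatccCCAGCTGATGGCGCtgttttgg
Irx3, beyond its 3′ end (chr8:91797942-91797971, minus strand): cacgtttcCCGCTTGGTGGCGTgtgaccgc
Irx5, in the gene body (chr8:92364565-92364594, minus strand): tccgggaaCCAGTAGGCGGCGCccttccta

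The second set shows cores of the strong sites away from the Irx promoters. The first line is a site of the conservative IDR list, and the others are from the optimal list.
Between Irx2 and Irx4, conservative list (chr13:73160400-73160429, plus strand): gcggacggCCAGCAGAGGGCGCgctgcctg
Between Irx2 and Irx4, edge of the longest gap (chr13:73033244-73033273, minus strand): cagcccggCCAGCAGGTGGCTCtgcctcac
Past Irx4, towards Ndufs6 and Mrpl36 (chr13:73310743-73310772, minus strand): ctgcctgcCCACCAGAGGGCAGtagtgcac
Past Irx4, towards Lpcat1 (chr13:73426017-73426046, plus strand): cctcatggCCACACGGTGGCAGtgtgagca
Between Irx3 and Irx5 (chr8:91966951-91966980, minus strand): ggtttcacCCCCTAGGGGGCGAtgttagga
Between Irx5 and Irx6 (chr8:92493536-92493565, plus strand): aaatggagACAGCAGGGGTCAGtatttgtt
Past Irx6, towards Mmp2 (chr8:92818364-92818393, plus strand): aatagcagCCGCCAGATGGCGAggcctgtc

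The third set shows the only cores that occurred at more than 1 site of the 63. The 37 cores called in the windows were 35 distinct sequences, and each of the 2 repeated cores joined a site of one cluster with a site of the other.
Irx1 to Irx2 interval (chr13:72370323-72370352, plus strand): aatgatggCCAGCAGAGGGCACtagataga
Irx3 to Irx5 interval (chr8:92116052-92116081, plus strand): cgagctctCCAGCAGAGGGCACtggtccca
Past Irx4 (chr13:73345646-73345675, plus strand): cttggaggCCAGAAGAGGGTGCcagatccc
Irx3 to Irx5 interval, near Crnde (chr8:92327337-92327366, plus strand): tttggaggCCAGAAGAGGGTGCtagattcc
The first pair shared 19 of 30 bases, so little beyond the core itself. The second pair shared 27 of 30 bases. In both of its sites repeat-masked sequence made up most of the 201 bp around the summit. The share was 58.7% past Irx4 and 68.7% at the site labelled near Crnde, which lies in an intron of that gene. The first pair had unequal signal, with 48.4 between Irx1 and Irx2 and 19.2 between Irx3 and Irx5, although the 14 bases are the same and have 0 mismatches. Signal here is the value that the authors' peak caller gave each peak against a control alignment. It has no stated scale, and the value from both libraries together is larger than that of either library alone.

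Both Irx windows, flanks included, held more CTCF peaks per Mb than their chromosomes, but fewer strong ones, and most of their peaks lay below the median signal of the list. The Irx1, Irx2 and Irx4 window had 20.4 peaks per Mb, against 15.2 per Mb on chromosome 13 as a whole. Its excess lay in the 200 kb past Irx4, with 70 per Mb, while the gene span without flanks had 14.5. The Irx3, Irx5 and Irx6 window had 21.8 peaks per Mb, against 18.8 per Mb on chromosome 8. The density over the assembled chromosomes was 16.8 per Mb. Among peaks at or above the list's median signal the direction turned. The Irx1, Irx2 and Irx4 window had 5.26 such peaks per Mb, against 7.39 on chromosome 13, and the Irx3, Irx5 and Irx6 window had 4.68, against 9.35 on chromosome 8. The median pooled signal was 33.9 in the Irx1, Irx2 and Irx4 window and 36.6 in the Irx3, Irx5 and Irx6 window, against 60.8 over the optimal list. Below the list's median lay 26 of the 35 peaks and 22 of the 28 peaks, or 48 of the 63 in all. The same held in each library, where the medians of the Irx1, Irx2 and Irx4 window and of the Irx3, Irx5 and Irx6 window were 20.4 and 19.1 in replicate 1, against 33.5 over all optimal peaks. In replicate 2 they were 15.2 and 19.1, against 28.5. The order of the 2 clusters was not the same in the 2 libraries, so their medians were not separable from the spread between libraries.

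A smaller share of the Irx peaks held a core than of all optimal peaks, which had a higher median signal. A core was present in 20 of 35 peaks in the Irx1, Irx2 and Irx4 window (57.1%, exact 95% binomial interval 39.4 to 73.7%) and in 17 of 28 in the Irx3, Irx5 and Irx6 window (60.7%, 40.6 to 78.5%). Together this was 37 of 63 (58.7%, 45.6 to 71.0%), against 73.5% of all optimal peaks on the assembled chromosomes. The interval of each window alone includes 73.5%. These intervals cover counting error only and treat peaks as independent, although neighbouring peaks are not replicates. They are therefore not a test against 73.5%, for each window or for both together. Windows of the same length lying 1000 bp to the left of all optimal summits held a core in 2.79% of cases. Peaks with a core had a higher median signal than peaks without in the Irx1, Irx2 and Irx4 window, at 44.8 against 27.2, but not in the Irx3, Irx5 and Irx6 window, at 34.7 against 38.5. Over all optimal peaks the medians were 78.7 with a core and 31.3 without. The 73.5% includes peaks of every signal, while most Irx peaks were below the list's median. Whether peaks elsewhere of like signal hold a core as seldom was not tested. The conservative IDR list also held 28 of the 35 peaks and 25 of the 28, or 53 of 63, against 89.4% of all optimal peaks.

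**Figure D1:**
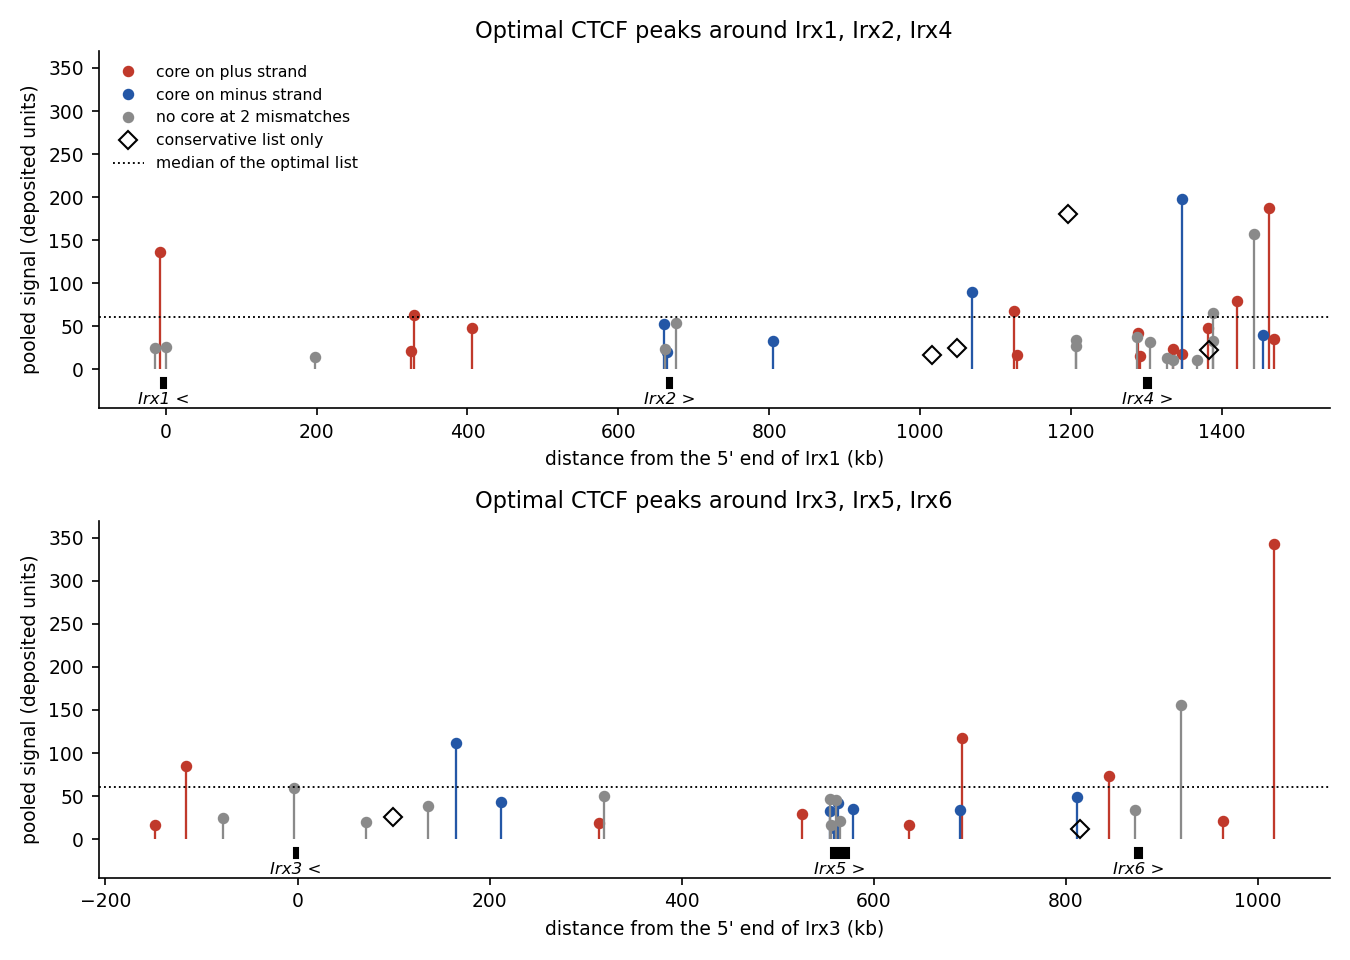
Pooled signal of each optimal CTCF peak (vertical axis, deposited units) along the Irx1, Irx2 and Irx4 window and the Irx3, Irx5 and Irx6 window (horizontal axis, kb from the 5′ end of the first gene), coloured by the strand of the core, with open diamonds for sites of the conservative list only and a dotted line at the optimal list's median of 60.8. Most peaks lie under the dotted line in both windows, and the strongest optimal peaks lie in the flanks past Irx4 and past Irx6.

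All 6 Irx genes had a CTCF peak within 10 kb of the 5′ end, against 50.8% of protein-coding genes, and 3 of 6 (Irx1, Irx5 and Irx6) had one within 1 kb, against 21.4%. The median distance from the 5′ end to the nearest summit was 1018 bp over the 6 genes and 9640 bp over all protein-coding genes. The nearest peak was below the list's median of 60.8 at each of the 6, with pooled signals between 15.9 at Irx4 and 59.0 at Irx3. The Irx3 value is close to that median and above the median of 57.7 for all optimal peaks within 10 kb of a coding 5′ end. Within 1.5 kb of the 3′ end lay a peak for 3 of 6 genes (Irx1, Irx3 and Irx4), against 11.2% of protein-coding genes. The 1.5 kb limit was chosen after these distances were seen. The genes differed widely in the number of peaks within 10 kb of the 5′ end, with 2 at Irx1, 3 at Irx2, 4 at Irx4, 1 at Irx3, 7 at Irx5 and 1 at Irx6. Replicate 1 alone gave 4 at both Irx2 and Irx4, and replicate 2 alone gave 3 at both. Irx5 had 6 from either library alone.

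Irx1 and Irx3, the first genes of their clusters and both on the minus strand, each had a CTCF peak just beyond the 3′ end. At Irx1 (chr13:71957921-71963723) that summit lay 1281 bp past the 3′ end and 88 bp upstream of the non-coding gene Gm40999. Its signal was 74.7 in replicate 1 and 62.1 in replicate 2 (68.4 ± 8.94, SD, n = 2), with 136 from both together. The peak nearest the Irx1 5′ end, 835 bp upstream, had 11.6 in replicate 1 and 15.2 in replicate 2. Both libraries placed the 3′ site several times above the promoter site, a gap far wider than the spread between them. At Irx3 (chr8:91798525-91802067) the summit lay 608 bp past the 3′ end, with 31.3 in replicate 1 and 26.1 in replicate 2 (28.7 ± 3.68, SD, n = 2) and 59.0 from both together. The Irx1 site was thus higher than the Irx3 site in each library. The best match at the Irx3 site, on the minus strand, has 3 mismatches. No optimal peak lay within 1 kb of the Irx3 5′ end. A relaxed peak of pooled signal 14.9 lay 28 bp inside it, with 8.54 in replicate 1 and 4.47 in replicate 2, and belonged to neither IDR list.

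Irx2 and Irx5, the middle genes, both lay among several weak peaks, but Irx5 had more. Irx5 (chr8:92357625-92376286) had 7 optimal peaks within 10 kb of its 5′ end, spanning 11.2 kb. Only 8 of 21755 protein-coding genes had at least 7 (0.0368%), and the highest count of any gene was 8. In the conservative list Irx5 had 6, a count reached by 24 genes (0.110%). The 7 pooled signals ran from 13 to 46.3, all below the list's median, and 3 of the 7 held a core, all on the minus strand. The summits furthest upstream, 1755 and 1455 bp before the 5′ end, lie at the promoter of Crnde, a long non-coding RNA gene that runs in the opposite direction. The Crnde summit 50 bp upstream of that gene had 23.9 in replicate 1 and 21.9 in replicate 2 (22.9 ± 1.42, SD, n = 2). The summit nearest the Irx5 5′ end, 153 bp inside the gene, had 9.97 in replicate 1 and 9.30 in replicate 2 (9.63 ± 0.473, SD, n = 2) and no core. Inside the gene body, 4505 bp from the 5′ end, a peak without a core had 17.7 in replicate 1 and 26.7 in replicate 2. The next, 6957 bp from the 5′ end and with the minus-strand core printed for Irx5, had 22.2 in replicate 1 and 19.8 in replicate 2. The order of these neighbours differed between libraries, so they were not separable.

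Irx2 (chr13:72628820-72634198) had 3 peaks within 10 kb, a count reached by 7.81% of protein-coding genes, and all 3 lay upstream. Their distances from the 5′ end were 4691, 3404 and 1201 bp. The farthest had 26.8 in replicate 1 and 24.4 in replicate 2 (25.6 ± 1.69, SD, n = 2). The middle one had 12.2 in replicate 1 and 7.96 in replicate 2, and the nearest had 11.6 in replicate 1 and 8.92 in replicate 2. The farthest was the highest in both libraries. It and the nearest had minus-strand cores, while the middle one had none.

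Irx4 and Irx6, the last genes, differed in the number and placing of their peaks. Irx4 (chr13:73260479-73269608) had 4 peaks within 10 kb of its 5′ end, a count reached by 2.30% of protein-coding genes, and none closer than 5828 bp. That nearest peak was weak, with 8.78 in replicate 1 and 6.83 in replicate 2. The summit 8244 bp upstream had 31.2 in replicate 1 and 11.0 in replicate 2, so its height depended on the library. The summit 9016 bp upstream had 19.4 in replicate 1 and 17.7 in replicate 2. A peak without a core lay in a coding exon of Irx4, 734 bp before the 3′ end, with 20.2 in replicate 1 and 11.5 in replicate 2. Irx6 (chr8:92674288-92680956) had a single peak within 10 kb, 642 bp upstream of the 5′ end and without a core. It had 12.9 in replicate 1 and 21.5 in replicate 2 (17.2 ± 6.09, SD, n = 2), and so was higher in replicate 2, the reverse of most sites. Relaxed peaks closer to the Irx1 and Irx4 5′ ends, 353 bp upstream of Irx1 and 135 bp inside Irx4, were called in replicate 1 and not matched in replicate 2, and were in neither IDR list.

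**Figure D2:**
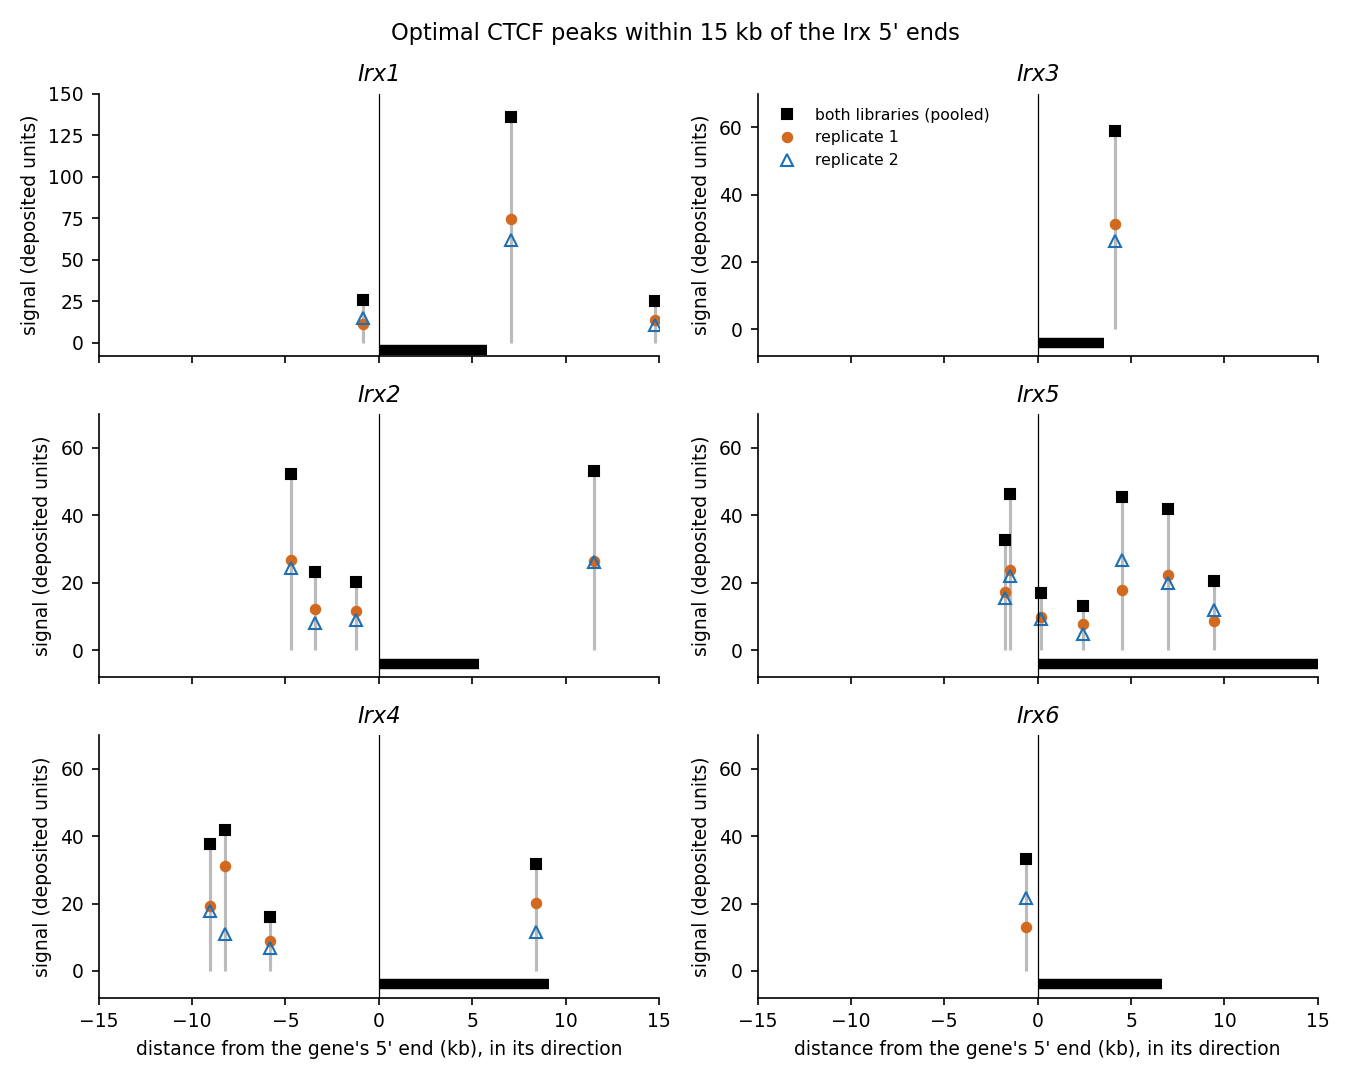
Signal (vertical axis, deposited units) of optimal CTCF peaks within 15 kb of each Irx 5′ end (horizontal axis, kb in the gene's direction), from both libraries together (squares), replicate 1 (circles) and replicate 2 (triangles), with the gene body as a thick bar. The Irx1 panel has a taller axis than the others to hold the 3′ site at 136, and Irx5 has 7 peaks where Irx6 has 1.

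The 18 peaks within 10 kb of an Irx 5′ end lay in sequence richer in CpG than the other peaks of the windows, most of all in the Irx3, Irx5 and Irx6 window. The median ratio of observed to expected CpG over 201 bp around the summit was 0.606 for these 18, against 0.165 for the other 45 and 0.324 for all optimal peaks within 10 kb of a coding 5′ end. The ratio was 0.5 or more at 12 of the 18 and at 2 of the 45, against 16.6% of all optimal peaks and 33.9% of those within 10 kb of a coding 5′ end. Of the 18, these were 4 of 9 near Irx1, Irx2 and Irx4, with a median ratio of 0.478, and 8 of 9 near Irx3, Irx5 and Irx6, with a median of 0.666. Median GC content was 60.7% near the Irx genes and 52.7% elsewhere in the windows. At Irx5 alone, which gave 7 of the 9 peaks near Irx3, Irx5 and Irx6, 6 of 7 had a ratio of 0.5 or more. A core was present in 8 of the 18 (44.4%) and in 29 of the 45 (64.4%), against 66.2% of all optimal peaks within 10 kb of a coding 5′ end. In the Irx1, Irx2 and Irx4 window it was present in 5 of 9 near the genes and 15 of 26 elsewhere. In the Irx3, Irx5 and Irx6 window it was present in 3 of 9 near the genes and 14 of 19 elsewhere. The difference thus lay in that window, and largely at Irx5, where 3 of 7 held a core. The median pooled signal was 32.9 near the genes and 35.6 elsewhere, but only 1 of the 18, the Irx1 3′ site, reached the list's median, against 14 of the 45. In replicate 1 these medians were 17.6 and 21.5, and in replicate 2 they were 15.4 and 18.3. For the Irx1, Irx2 and Irx4 window alone they were 19.4 and 21.7 in replicate 1, and 11.5 and 17.7 in replicate 2. For the Irx3, Irx5 and Irx6 window they were 17.4 and 21.2 in replicate 1, and 19.8 and 18.3 in replicate 2. The order in that window thus depended on the library.

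**Figure D3:**
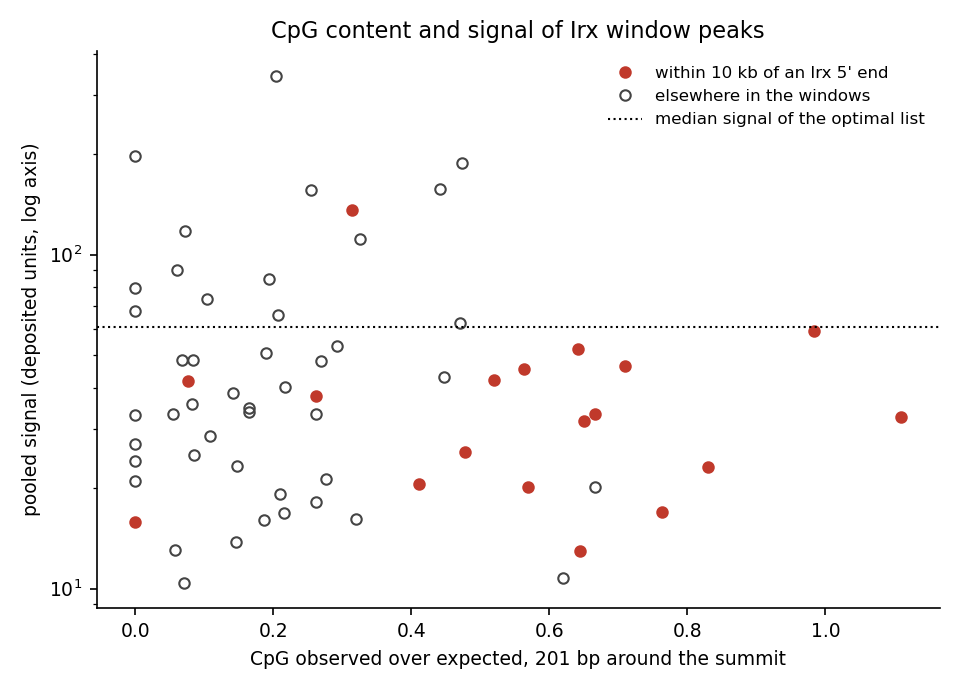
Pooled signal (vertical axis, deposited units, log scale) against the observed over expected CpG ratio in 201 bp around the summit (horizontal axis) for the 18 peaks within 10 kb of an Irx 5′ end (filled) and the other 45 peaks of the windows (open), with a dotted line at the optimal list's median of 60.8. Of the filled points, 12 lie at a ratio of 0.5 or more, and 1 lies above the dotted line.

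Between the genes, CTCF peaks were sparser than in the flank past Irx4. The Irx1 to Irx2 interval of 665.1 kb held 8 peaks (12 per Mb) and its counterpart from Irx3 to Irx5, 555.6 kb long, held 9 (16.2 per Mb). The Irx2 to Irx4 interval of 626.3 kb held 10 peaks (16.0 per Mb) and its counterpart from Irx5 to Irx6, 298.0 kb long, held 7 (23.5 per Mb). Both intervals of the Irx1, Irx2 and Irx4 cluster were thus longer and sparser than their counterparts. The 200 kb past Irx4 held 14 peaks (70 per Mb) and the 200 kb past Irx6 held 3 (15 per Mb). The size of the difference between the windows moved with the flank. With no flank, the Irx1, Irx2 and Irx4 span had 14.5 peaks per Mb and the Irx3, Irx5 and Irx6 span had 23.8, a ratio of 0.609, where the ratio was 0.859 with 100 kb flanks, 0.937 with 200 kb and 0.814 with 500 kb. The ratio was below 1 at each of these flanks. With 200 kb flanks, replicate 1 alone gave 22.2 against 23.4 peaks per Mb, and replicate 2 alone gave 16.9 against 24.2. Among peaks at or above the list's median signal the order was reversed, with 5.26 per Mb against 4.68. The Irx1, Irx2 and Irx4 span and the 200 kb before Irx1, with 2 peaks (10 per Mb), were both below the 15.2 per Mb of chromosome 13, and the 200 kb past Irx4 was above it.

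**Figure D4:**
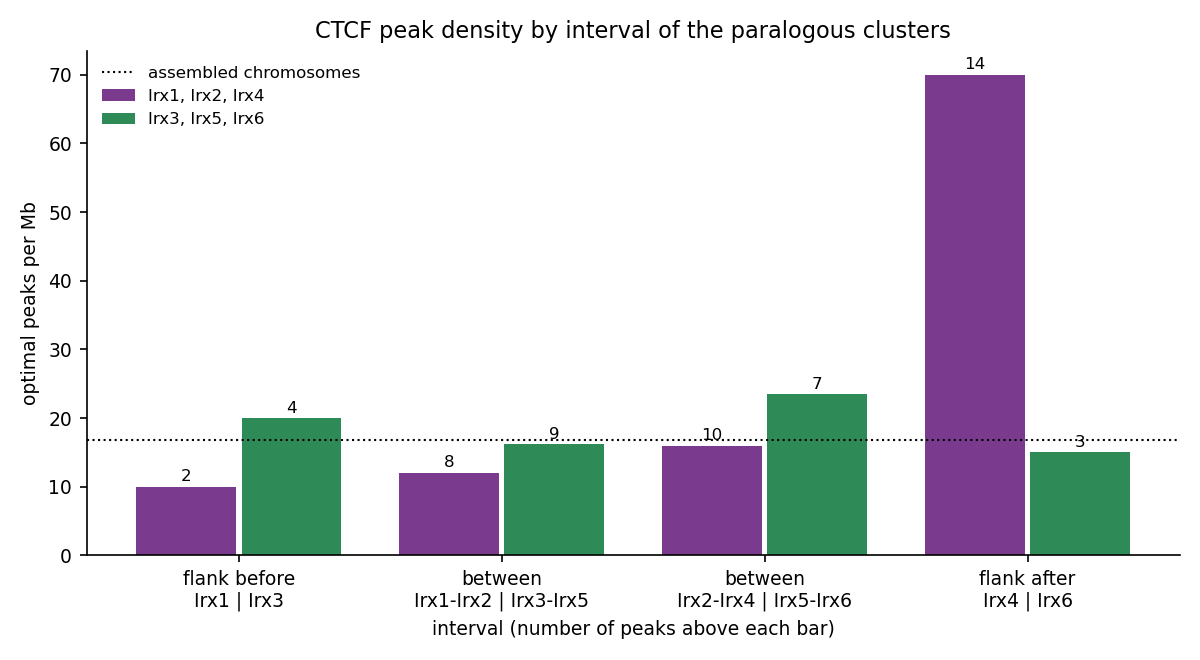
Optimal CTCF peaks per Mb (vertical axis, bars from 0, number of peaks above each bar) in the flanks and between neighbouring genes of the Irx1, Irx2 and Irx4 cluster and of the Irx3, Irx5 and Irx6 cluster (horizontal axis), with a dotted line at 16.8 per Mb for the assembled chromosomes. The flank past Irx4 stands at 70 per Mb, and the next highest bar, between Irx5 and Irx6, is at 23.5.

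The longest stretch without an optimal peak was 263.9 kb in the Irx1, Irx2 and Irx4 window, between Irx2 and Irx4, and 205.8 kb in the Irx3, Irx5 and Irx6 window, between Irx3 and Irx5. The first gap ran from summit 72769373 to summit 73033244 on chromosome 13, and both edges held minus-strand cores. Its left edge had 20.4 in replicate 1 and 11.8 in replicate 2, and its right edge had 54.0 in replicate 1 and 36.0 in replicate 2, so the right edge was the higher in both. Sites of the conservative list at 72979190 and 73013313, with pooled signals of 17.0 and 24.7, lie inside it. The gap on chromosome 8 ran from summit 92121510 to summit 92327345, with pooled signals of 50.6 and 28.7 at its edges. A further gap of 253.8 kb lay between Irx1 and Irx2. It was flanked by a plus-strand core with 0 mismatches on the left and a minus-strand core on the right, the facing arrangement. Over the optimal and conservative lists joined, it was the longest gap of its window. Gaps of 200 kb or more made up 5.88% of the gaps in the Irx1, Irx2 and Irx4 window and 3.70% of those in the Irx3, Irx5 and Irx6 window, against 5.06% over the genome.

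The Irx1, Irx2 and Irx4 window held 14 plus-strand and 6 minus-strand cores. In the Irx3, Irx5 and Irx6 window there were 9 plus and 8 minus. The strand split over all optimal peaks is not given here, so these counts have no background to be set against. Of the 19 neighbouring pairs of cores in the Irx1, Irx2 and Irx4 window, 3 faced each other, 3 faced apart, 10 were both plus and 3 were both minus. Of the 16 pairs in the Irx3, Irx5 and Irx6 window there were 4 of each kind. Between Irx5 and Irx6 the 6 cores alternated strand at every step. Among the optimal peaks between Irx2 and Irx4, the 2 minus-strand cores came before the 4 plus-strand ones. The conservative-list site at 73013313, with a plus-strand core of 1 mismatch, lies between those 2 minus-strand cores. That order thus depends on the list. In the flank past Irx4, 6 of 8 cores were on the plus strand.

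The strongest optimal peaks of both windows lay in the flanks, past the last Irx gene and towards genes of other families. Past Irx6, the summit at 92818352, 8939 bp upstream of Mmp2, which encodes a matrix metalloproteinase, had 185 in replicate 1 and 159 in replicate 2 (172 ± 18.7, SD, n = 2). Its pooled signal of 343 was above that of 99.9% of optimal peaks. Also past Irx6, 47.5 kb from that gene's 5′ end, a site with no core had 72.3 in replicate 1 and 83.1 in replicate 2. Past Irx4, the summit at 73310752 had 111 in replicate 1 and 85.5 in replicate 2 (98.3 ± 18.1, SD, n = 2), and its core has 0 mismatches. The summit at 73426027, on the way to Lpcat1, had 108 in replicate 1 and 78.7 in replicate 2 (93.4 ± 20.7, SD, n = 2). The site at 73310752 was the higher of these 2 in both libraries, by less than the libraries differed from each other at either site. Between them the summit at 73405947 had 76.4 in replicate 1 and 81.1 in replicate 2, again with no core. Between the Irx genes the highest optimal peaks were weaker than these. The site between Irx5 and Irx6 at 92493561 had 59.2 in replicate 1 and 55.1 in replicate 2 (57.1 ± 2.88, SD, n = 2), and the site between Irx3 and Irx5 at 91966966 had 47.1 in replicate 1 and 60.8 in replicate 2. The order of that pair was reversed between libraries. Before Irx3, the site at 91685593 had 45.6 in replicate 1 and 36.4 in replicate 2.

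A strong site between Irx2 and Irx4 was in the conservative list and not in the optimal list as used here, so it is in none of the counts above. Its summit at 73160447 lay 100.03 kb upstream of Irx4 in intergenic sequence, and its plus-strand core has 0 mismatches. It had 99.1 in replicate 1 and 88.4 in replicate 2 (93.7 ± 7.5, SD, n = 2), with 181 from both together. Within the Irx1 to Irx4 span this was higher than every optimal peak in both libraries. In replicate 2 it was also above every optimal peak of the flank past Irx4, and in replicate 1 it was below the sites at 73310752 and 73426027. Of the 3414 peaks over the genome that were in the conservative list only, 2 had a signal that high. The other sites of this kind in the windows were 3 on chromosome 13 and 2 on chromosome 8, all with a pooled signal from 12.2 to 25.6.

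The libraries gave like values at most Irx sites, and the widest differences lay past Irx4, between Irx2 and Irx4 and between Irx3 and Irx5. A peak in both libraries matched 33 of the 35 sites in the Irx1, Irx2 and Irx4 window and all 28 in the Irx3, Irx5 and Irx6 window. The sites with no match in replicate 2 had pooled signals of 16.0 and 10.4. On the log2 scale, the ratio of the replicate 1 value to the replicate 2 value was 0.36 at the median in the Irx1, Irx2 and Irx4 window and 0.16 in the Irx3, Irx5 and Irx6 window, against 0.22 over all optimal peaks. Its size had a median of 0.38 and 0.29 in these windows. No value over all optimal peaks is given for that size or for the share of sites matched in both libraries. The widest difference was 2.48 at summit 73352733 past Irx4, with 27.3 in replicate 1 and 4.88 in replicate 2. Next was 1.84 at summit 73170123 between Irx2 and Irx4, with 22.7 in replicate 1 and 6.33 in replicate 2. On chromosome 8 the widest was -1.58 at summit 91872829 between Irx3 and Irx5, with 4.5 in replicate 1 and 13.4 in replicate 2. The 2 widest sites lie 624 and 476 bp from a neighbouring summit.

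**Figure D5:**
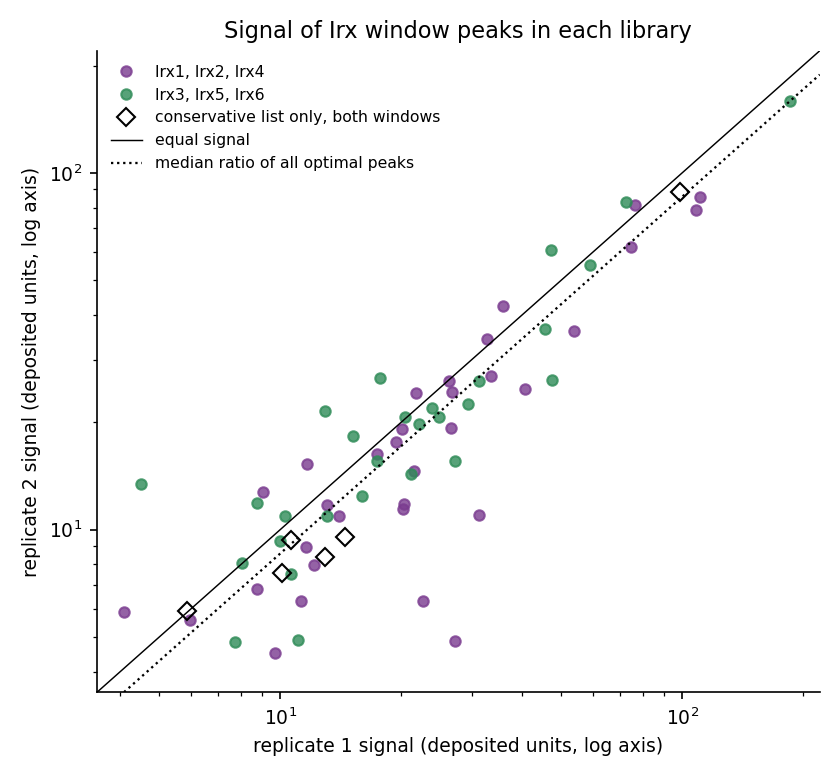
Signal of each matched Irx window peak in replicate 1 (horizontal axis, deposited units, log scale) and replicate 2 (vertical axis, deposited units, log scale), for the Irx1, Irx2 and Irx4 window, the Irx3, Irx5 and Irx6 window and the sites of the conservative list only, with a solid line at equal signal and a dotted line at the median ratio of all optimal peaks. Most points lie near the dotted line, and the point at 27.3 and 4.88 lies farthest below it.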

How the data were processed

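Peaks were called on mm10, per the text files the authors deposited beside the lists, from the alignment of each library, and of both together, against a control alignment. The control alignment was not used here. The authors derived the optimal and conservative IDR lists from these relaxed lists of 300000 peaks each. For the aligner, the caller, its version and the IDR threshold, nothing is given in the sources used here. The deposited signal value of each peak has no stated scale, was used as given and ranks peaks only within a list. A site's value in each library is that of the nearest relaxed summit within 100 bp. The members, gene lists and core consensus were chosen with earlier results of these data known.

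Densities, gaps and distances used GENCODE M21 gene records, and sequences came from GRCm38.p6, whose chromosome lengths equal mm10. Genes named are the Irx genes, protein-coding genes starting in the windows, non-coding genes nearest to the 10 strongest peaks of each window, and the 3 listed Irx-linked genes with the strongest peaks, of which 1 is not reported here, nor is 1 sequence. Non-coding genes were named only where a described peak lies beside them. Sites named are those nearest each Irx 5′ end, the 5 strongest per window, gap edges and those differing most between libraries, and further sites near Irx genes were added after their values were seen. Binomial intervals are exact (scipy 1.17.1). Other work used python 3.11.15, pandas 2.3.3, numpy 2.4.6, samtools 1.23.1 and matplotlib 3.10.9. The core search and the matching of summits were tested on simulated data. Alternatives covered the list, flank, signal scale, core rule, distance limit and each library left out.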

Additional observations from a re-analysis of the deposited data

How the results depend on the processing

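All 6 Irx genes had a peak within 10 kb under every alternative run except a 5 kb limit, which gave 5 and lost Irx4. Median signal in the Irx1, Irx2 and Irx4 window was 39.0 in the conservative list, 40.2 with 500 kb flanks and 15.2 to 20.4 from a single library. In the Irx3, Irx5 and Irx6 window it was 38.5 in the conservative list, 34.7 with 100 kb flanks, 45.5 with 500 kb flanks, 34.0 over the optimal and conservative lists joined, and 19.05 to 19.10 from a single library. Over all optimal peaks the median was lower from a single library, at 33.5 in replicate 1 and 28.5 in replicate 2, against 60.8 pooled. As percentiles of the optimal list, the median was 32.0 in the Irx1, Irx2 and Irx4 window and 34.4 in the other. Peaks at or above the list's median came to 5.26 per Mb in the Irx1, Irx2 and Irx4 window and 4.68 in the other, against 8.41 over the genome. The share of peaks with a core was 25.7% in the Irx1, Irx2 and Irx4 window and 10.7% in the other at no more than 1 mismatch. At no more than 3 it was 82.9% and 82.1%. With cores sought within 100 bp of the summit it was 57.1% and 67.9%, and in the conservative list 65.6% and 55.6%. No share over all optimal peaks is given at these limits or settings. The comparison with 73.5% thus holds only for the optimal list, at no more than 2 mismatches within 50 bp. The longest gap in the Irx1, Irx2 and Irx4 window was 324.7 kb in the conservative list, 317.3 kb with 500 kb flanks and 253.8 to 324.7 kb from a single library. In the Irx3, Irx5 and Irx6 window it was 201.6 to 202.3 kb from a single library. The cause of these shifts was not tested. The joined lists were an alternative chosen after seeing the data. Of 60 recomputed values, 38 stayed within 1 replicate SD, counting interval or 1.5-fold of the value reported. No paired analysis was possible because the study has a single group. Read depth is unknown, a signal cannot be turned into reads, and 2 libraries that share a donor label limit every spread given.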

Other observations

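In the Irx windows lie the 5′ ends of 5 protein-coding genes of other families, and 3 of the 5 had an optimal peak within 10 kb, a share near the 50.8% of all protein-coding genes. Ndufs6, which encodes a subunit of respiratory complex I, and Mrpl36, which encodes a mitochondrial ribosomal protein, run in opposite directions from overlapping first bases past Irx4, and a single peak lay 2606 bp from the Ndufs6 5′ end and 2635 bp from the Mrpl36 5′ end. That peak was among the weakest of the optimal list, with 4.10 in replicate 1 and 5.89 in replicate 2, had no core and was not in the conservative list. Mmp2 had its nearest peak at 8939 bp. Lpcat1 and Lpcat2, paralogous lysophosphatidylcholine acyltransferase genes at the outer edge of the 2 windows, had none within 10 kb, with the nearest summit at 34511 bp for Lpcat1 and 28633 bp for Lpcat2. In the flank before Irx3, the peak farthest from the gene, with 8.02 in replicate 1 and 8.05 in replicate 2, lay in an intron of Fto, a demethylase gene whose introns hold enhancers that contact Irx3 in the mouse.

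Of 20 genes linked to Irx factors in the heart, 14 (70%) had an optimal peak within 10 kb of the 5′ end, against 50.8% of protein-coding genes. This list was written with earlier results of these data known. Myl2, the ventricular myosin light chain gene, had 94.8 in replicate 1 and 83.9 in replicate 2 at 9.69 kb upstream. Hey1, which encodes a transcriptional repressor downstream of Notch, had 99.7 in replicate 1 and 78.1 in replicate 2 at 2.55 kb downstream of the 5′ end. Both were higher in each library than every peak within 10 kb of an Irx 5′ end. The 6 genes with no peak within 10 kb were Gja5, Bmp10, Hand1, Nkx2-5, Tbx5 and Smyd1.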
